A study of Mus musculus with 8 samples.

Results

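Tau and 9 other neuronal microtubule genes were compared between cortices of Nuak1 knockout (KO) and wild-type (WT) mouse embryos. The genes were chosen by name: Mapt, Map1a, Map1b, Map2 and Map6 as structural microtubule-associated proteins (MAPs), Dcx and Dclk1 as the doublecortin family, Stmn1 and Stmn2 as stathmins, and Tubb3 as a tubulin. All 10 of them were found among the 21165 gene rows of the count table, 4 under the older names Mtap1a, Mtap1b, Mtap2 and Mtap6. Together they took between 0.805% and 0.899% of the counts of a library.

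Microtubules are hollow polymers of alpha- and beta-tubulin that carry transport along axons and dendrites and give these their shape. Structural MAPs and doublecortins bind along the polymer and stabilise or bundle it, whereas stathmins bind free tubulin dimers and favour disassembly. Tau, the product of Mapt, is enriched in axons and MAP2 in dendrites, and the newborn neurons of the embryonic cortex make large amounts of doublecortin, stathmins and the neuronal beta-tubulin encoded by Tubb3. NUAK1 belongs to the AMPK-related kinases, a family in which the MARK kinases phosphorylate tau and other MAPs.

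At E18.5 the study collected the cortex of 4 embryos with a constitutive KO of Nuak1 and of 4 WT embryos, and sequenced polyadenylated RNA as pairs of 100-base reads. The KO lacked Nuak1 in the whole animal, not in neurons alone, and these mice do not survive birth. The labels list 2 male and 2 female KO embryos and 1 male and 3 female WT embryos. They name 3 litters, with equal numbers of KO and WT embryos in each, whereas the series description gives 4 litters. The columns of the table bear only a genotype and a running number. Libraries are therefore named by genotype and number, as in WT R4, and no litter or sex was assigned to a library.

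Libraries held between 9643711 counts in WT R4 and 27014858 in KO R3. Nuak1 had between 11.1 and 20.5 normalized counts in KO and between 877 and 1445 in WT, so each column followed its genotype. Counts are given normalized, that is, scaled so that all libraries have the same effective size, and intervals are 95% intervals. No pair of libraries of a genotype was as close as sampling noise, and the widest gap within a genotype lay between WT R2 and WT R4, with a chi-square per degree of freedom of 16.5.

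Several of these genes have close relatives, so the sequences that separate them from one another decide how far a read can be assigned. The most similar 100-base stretches of coding sequence, as long as a single read, in 4 pairs of relatives are printed from NCBIM37, the assembly behind the mm9 build of the study, in coding direction. Capitals mark the bases at which the members of a pair differ.

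The stathmin pair differed at 13 of 100 bases, in coding exons of Stmn1 (plus strand, chr4:134028737-134028836) and Stmn2 (plus strand, chr3:8554810-8554909).
Stmn1: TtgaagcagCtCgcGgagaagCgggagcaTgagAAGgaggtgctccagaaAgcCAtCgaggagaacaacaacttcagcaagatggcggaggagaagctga
Stmn2: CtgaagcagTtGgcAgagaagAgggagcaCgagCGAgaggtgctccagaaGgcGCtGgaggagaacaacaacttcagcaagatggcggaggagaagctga

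The Map1a and Map1b pair differed at 15 bases, in coding exons of Map1a (plus strand, chr2:121125203-121125302) and Map1b (minus strand, chr13:100205353-100205452).
Map1a: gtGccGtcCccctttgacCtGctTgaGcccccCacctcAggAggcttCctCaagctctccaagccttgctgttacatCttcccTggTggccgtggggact
Map1b: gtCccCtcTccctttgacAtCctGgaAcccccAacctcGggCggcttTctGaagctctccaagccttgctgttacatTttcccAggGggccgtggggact

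The doublecortin pair differed at 18 bases, in coding exons of Dcx (minus strand, chrX:140357676-140357775) and Dclk1 (plus strand, chr3:55059990-55060089).
Dcx: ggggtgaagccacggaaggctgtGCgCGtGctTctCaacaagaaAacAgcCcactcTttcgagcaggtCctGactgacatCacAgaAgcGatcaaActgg
Dclk1: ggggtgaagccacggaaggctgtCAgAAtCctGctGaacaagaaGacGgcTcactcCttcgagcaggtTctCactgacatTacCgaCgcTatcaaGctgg

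Tubb2b, another beta-tubulin, also differed from Tubb3 at 4 bases in its closest stretch, which is not printed, and Tubb6 was not compared. Tubb2b averaged 73726 normalized counts in KO and 66219 in WT, against 11403 and 10449 for Tubb2a. The tubulin pair was the closest of the pairs printed, with 4 differences in coding exons of Tubb3 (plus strand, chr8:125945323-125945422) and Tubb2a (minus strand, chr13:34166482-34166581), Tubb2a being another beta-tubulin of the cortex.
Tubb3: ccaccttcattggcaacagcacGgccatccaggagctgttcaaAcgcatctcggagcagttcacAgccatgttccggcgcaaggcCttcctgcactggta
Tubb2a: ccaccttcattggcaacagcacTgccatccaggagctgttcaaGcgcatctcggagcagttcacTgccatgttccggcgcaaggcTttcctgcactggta

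Exact copies outside the gene itself were found for 2 of the 10 genes. Of the 1526 windows of 100 bases in the exons of Stmn1, 403 (26.4%) recurred elsewhere in the genome, 344 of them on chromosome 4 within Gm11223 (69586235 to 69587101) and 59 on chromosome 17 (70742006 to 70742163). For Tubb3, 13 of 1472 windows (0.883%) recurred on chromosome 6 (136350004 to 136350115). The other 8 genes had no window with an exact copy. By exact copies alone, the level of Stmn1 was the most open of the 10 to reads lost or shared at counting. Windows across exon junctions, and copies with mismatches elsewhere in the genome, were not searched for.

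None of the 10 genes differed between KO and WT beyond the spread of the libraries. All 10 passed edgeR's filter on low counts, and 0 passed an adjusted p of 0.05 in the quasi-likelihood test of edgeR (Benjamini-Hochberg adjustment over 12699 genes), which 0.0709% of all genes passed, 0.0315% higher and 0.0394% lower in KO. At an unadjusted p of 0.05 the number was also 0, against 7.69% of all genes tested, or 4.25% where the study's threshold of 0.25 on the absolute log2 fold change was added. The Wald test of DESeq2 also called 0 of the 10 at either p. Log2 fold changes of KO over WT lay between -0.07 for Map1b and 0.12 for Stmn2, with a median of 0.03 (-0.0178 without WT R2) against -0.01 for all genes tested, and 6 of the 10 were above 0 against 45.6% of all genes. The genotypes overlapped in every one of the 10 genes, while 4.49% of all genes had no overlap.

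How large a change could have gone unseen is given by the intervals. For 7 of the 10 genes the interval of the log2 fold change lay within 0.25 of 0, the fold change threshold of the study, against 36.5% of all genes tested and 62.6% of the 6929 genes at or above the level of Map1a, the lowest of the 10. Map1a, Map1b and Stmn2 had intervals that reached past that limit. Leaving out WT R1 or WT R4 lowered the number within the limit from 7 to 4. It was 5 without KO R2, KO R3 or WT R2, 6 without KO R1 or KO R4, and 7 without WT R3. With all libraries, the number was 8 with the size factors of DESeq2 in edgeR, without filter, and with at least 10 counts in every library.

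**Figure D1:**
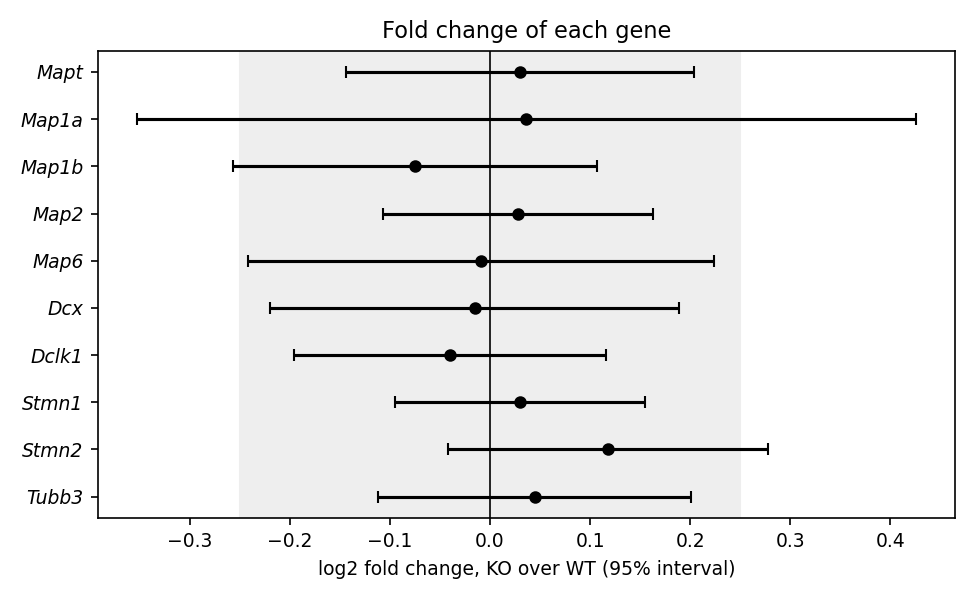
Log2 fold change of KO over WT (x axis) for each gene (y axis), with points at the edgeR estimate, bars for the 95% interval and a grey band from -0.25 to 0.25. Every interval spans 0, and those of Map1a, Map1b and Stmn2 leave the band.

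Mapt, the gene of tau, had normalized counts of 16939, 18708, 18018 and 20007 in KO R1 to R4 and of 18895, 16198, 16812 and 20287 in WT R1 to R4. Both the highest and the lowest library were WT, and the KO libraries lay between them. KO averaged 18418 ± 1286 and WT 18048 ± 1887 normalized counts (SD, n = 4 each), and the log2 fold change was 0.03 (standard error 0.08, adjusted p = 0.956, edgeR's quasi-likelihood test), with an interval from -0.14 to 0.20. In linear terms this interval runs from -9.53% to 15.2%. On NCBIM37 Mapt lies on the plus strand of chromosome 11, from 104092704 to 104193404, and no exon of another gene overlaps its exons. Among the 10 genes such overlaps were found for Stmn1 (AL669982.1, same strand, 3.43% of the exon length), Map1a (Ppip5k1, opposite strand, 2.24%) and Map2 (Gm10558, opposite strand, 0.754%).

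Map2 encodes the MAP of dendrites and cell bodies. It had 14367, 15788, 15048 and 15013 normalized counts in KO R1 to R4 and 15059.6, 16036, 14561 and 13403 in WT R1 to R4. Here WT R2 was the highest library and WT R4 the lowest, the reverse of Mapt. KO over WT gave a log2 fold change of 0.03 for Map2 (standard error 0.06, interval -0.11 to 0.16), and of the 10 genes only Stmn1 had a smaller standard error.

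Map6 encodes the protein also known as STOP, which makes microtubules resistant to cold. Its normalized counts were 1106, 1048, 1033 and 1123 in KO and 1052, 869, 1107 and 1329 in WT. The KO libraries sat close together, with a coefficient of variation of 4.07%, and the WT libraries spread around them with one of 17.4%. For Map6 the log2 fold change was -0.01 (standard error 0.11, interval -0.24 to 0.22), and it lay at -0.11 without WT R2 and at 0.10 without WT R4.

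Map1a and Map1b encode large related MAPs, of which MAP1B predominates in growing axons and MAP1A in mature neurons. Map1a had 392, 348, 361 and 424 normalized counts in KO R1 to R4 and 360, 258, 358 and 532 in WT R1 to R4. The WT libraries alone thus differed by 2.07-fold, from WT R2 to WT R4, and enclosed all KO libraries. The log2 fold change of Map1a, 0.04, had the largest standard error of the 10 genes, 0.18, and an interval from -0.35 to 0.43. The estimate was -0.12 without WT R2 and 0.24 without WT R4.

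Map1b had 7589.8, 8894, 8171 and 8771 normalized counts in KO and 9528, 7704, 9734 and 8239 in WT. WT R1 and WT R3 were above all KO libraries, while WT R2 was close to KO R1, the lowest. Its log2 fold change of -0.07 (standard error 0.08, interval -0.26 to 0.11, adjusted p = 0.880 by edgeR's quasi-likelihood test) was the lowest of the 10. With 1 library left out it lay between -0.134 (without WT R2) and -0.018 (without WT R3).

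Dcx encodes doublecortin, a MAP of migrating and newly formed neurons. Its normalized counts were 6159, 7868, 7271 and 6711 in KO and 6805, 7046, 8215 and 6229 in WT. The libraries of the genotypes interleaved, with WT R3 highest and KO R1 lowest. Dcx had a log2 fold change of -0.02 (standard error 0.09, interval -0.22 to 0.19).

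Dclk1 encodes doublecortin-like kinase 1, which joins doublecortin domains to a kinase domain. It had 7236, 8362, 7536 and 8332 normalized counts in KO and 8248, 7210.2, 8172 and 8736 in WT, with the lowest and the highest library both WT. Dclk1 had a log2 fold change of -0.04 (standard error 0.07, interval -0.20 to 0.12).

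Stmn1, the stathmin shared by progenitors and neurons, was the most abundant of the 10 genes. Its normalized counts were 39966, 43976, 41095 and 44492 in KO and 41804, 39907, 40339.8 and 44000.3 in WT. The lowest library was WT R2 and the highest KO R4, and within each genotype the coefficient of variation was 5.18% (KO) and 4.45% (WT). KO over WT gave a log2 fold change of 0.03 (standard error 0.06, interval -0.10 to 0.16).

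Stmn2, the neuron-specific stathmin also called SCG10, showed the largest difference of the 10 genes. Its normalized counts were 18863, 19572, 19352 and 20430.5 in KO R1 to R4, and 17319, 17637, 16323 and 20821 in WT R1 to R4. All KO libraries were above WT R1, R2 and R3, and WT R4 was above all KO libraries. KO averaged 19554 ± 655 and WT 18025 ± 1946 normalized counts (SD, n = 4 each). The log2 fold change of Stmn2 was 0.12 (standard error 0.07, interval -0.04 to 0.28), with an unadjusted p of 0.133 and an adjusted p of 0.777 in edgeR's quasi-likelihood test, the smallest of the 10. Without WT R4 it was 0.20, with an adjusted p of 0.237 in edgeR's quasi-likelihood test. Stmn2 was then the only one of the 10 genes at an unadjusted p under 0.05 in that test. Removing WT R4, the only WT library above the KO libraries, leaves no overlap, so a smaller p follows from that choice. Over all genes, 847 in place of 540 were then at an unadjusted p under 0.05 and an absolute log2 fold change over 0.25.

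Tubb3, the beta-tubulin used as a marker of neurons, had 18852, 23075, 21049.9 and 22971 normalized counts in KO and 22234, 20911, 20411 and 19772 in WT. In this gene the KO libraries spread more widely than the WT libraries, from KO R1 at the bottom to KO R2 at the top. For Tubb3 the log2 fold change was 0.04 (standard error 0.07, interval -0.11 to 0.20).

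**Figure D2:**
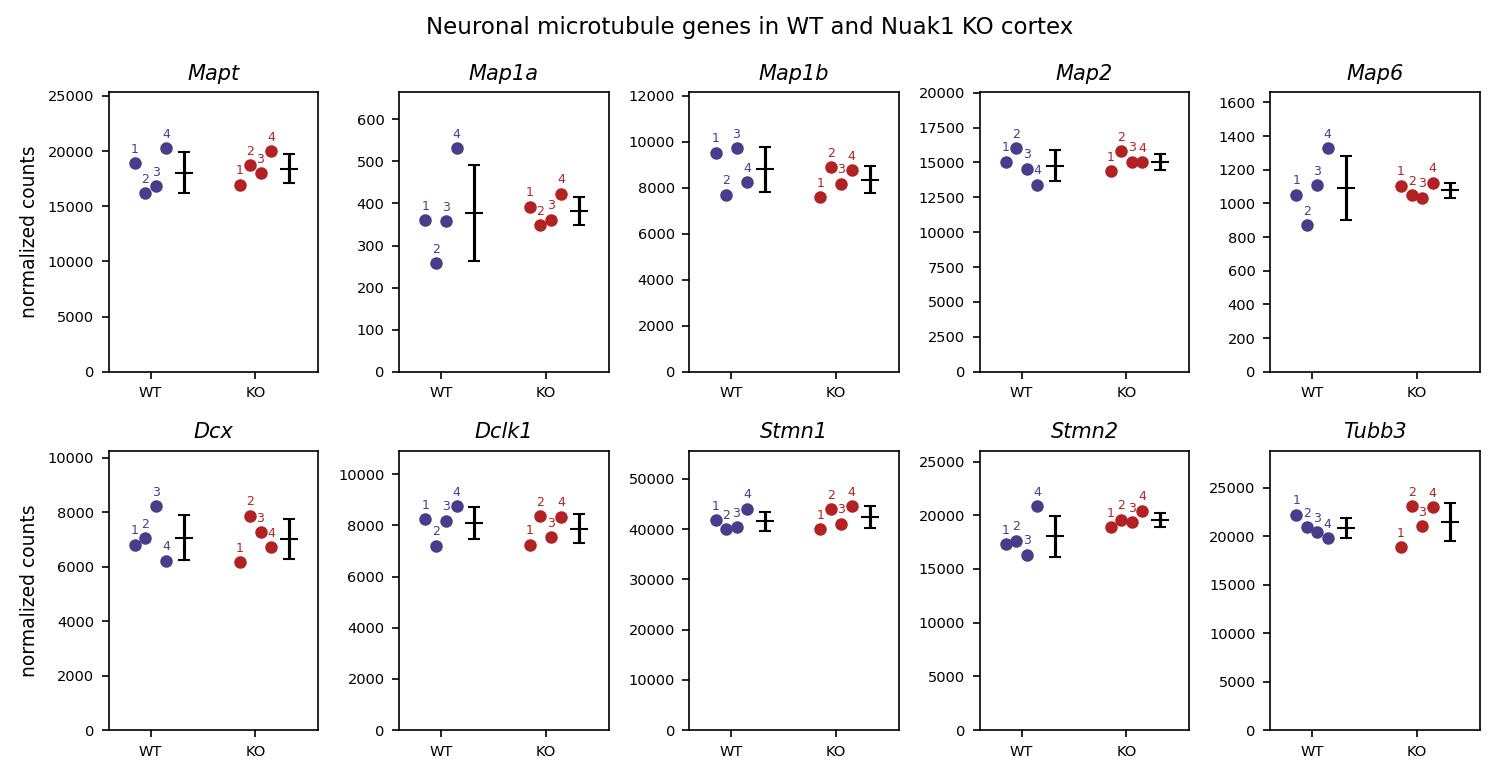
Normalized counts (y axis, from 0) of each of the 10 genes in the 4 WT (blue) and 4 KO (red) libraries, numbered by library, with the mean and SD of each genotype in black. The genotypes overlap in every panel, and the WT libraries of Map1a reach from 258 to 532.

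The libraries that set the spread were mostly the same. WT R4 was the highest library for 5 of the 10 genes (Mapt, Map1a, Map6, Dclk1 and Stmn2), and WT R2 the lowest for 5 (Mapt, Map1a, Map6, Dclk1 and Stmn1). KO R1 was the lowest for 3 (Map1b, Dcx and Tubb3). As log2 deviations from the mean of the 8 libraries, the 10 genes had a median of -0.11 in WT R2 and of 0.10 in WT R4, and Map1a reached -0.53 and 0.52 in these libraries.

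The log2 spread was wider in WT than in KO for 8 of the 10 genes, Stmn1 and Tubb3 being the exceptions. Of all genes at or above the level of Map1a, 63.2% had a wider spread in WT, so the wider WT spread was not limited to microtubule genes. WT R4 was also the shallowest library, and whether depth has a part in its position was not tested.

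**Figure D3:**
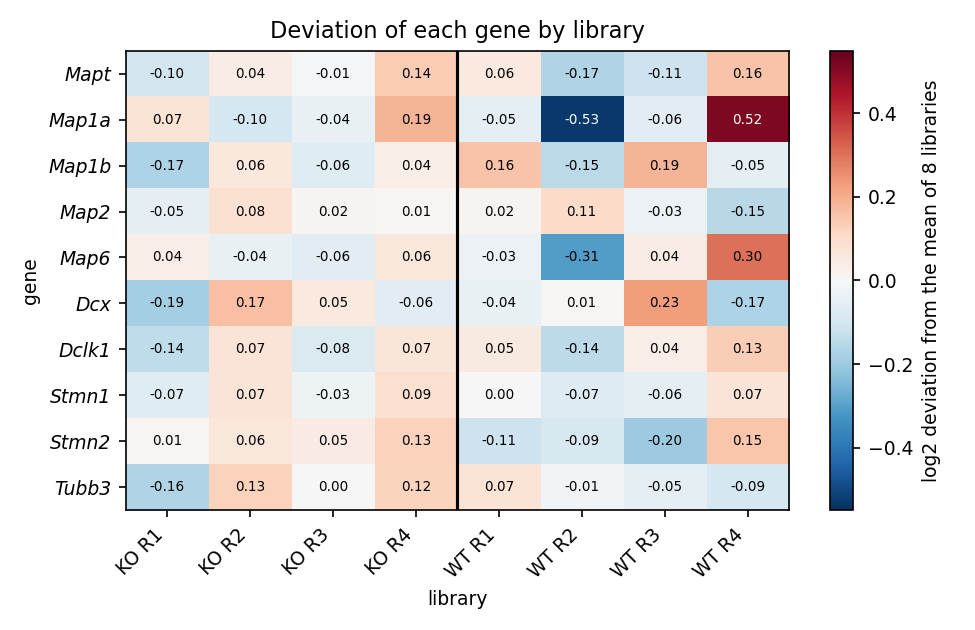
Log2 deviation of each gene (y axis) from its mean over the 8 libraries in each library (x axis), red above and blue below the mean, KO left and WT right of the line. The strongest cells are Map1a and Map6 in WT R2 (blue) and WT R4 (red).

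Markers of the cells in the cortex were summed in each library as a check on the tissue. The 10 markers of cortical projection neurons, led by Neurod6, summed to between 25167 and 27785 normalized counts in KO and between 18603 and 23962 in WT, and 5 of the 9 tested were above 0 in log2 fold change. The 10 progenitor markers, led by Fabp7, summed to between 24502 and 29844 in KO and between 25036 and 33980 in WT, with 1 above 0. The 8 interneuron markers, led by Gad1, summed to between 2564 and 2861 in KO and between 2681 and 3439 in WT, with 0 above 0. Over all genes tested, 45.6% were above 0.

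Markers of glia, vessels, meninges, microglia and blood were uneven between libraries. Meningeal fibroblast markers, led by Col3a1, summed to 9795 normalized counts in KO R1 and to between 310 and 548 in the other 7 libraries. KO R1 was also highest in the endothelial sum (4811, led by Kdr) and the microglial sum (1126, led by Csf1r). Endothelial sums of KO R3 (3545) and KO R4 (3713) were also above every WT library (highest 3370), while KO R2 had 3146. Microglial sums were 561 in KO R2, 554 in KO R3 and 791 in KO R4, against 544 to 789 in WT. Log2 fold changes were above 0 for all 8 endothelial, all 7 microglial and all 6 meningeal markers tested. This held for 6 of the 8 glial and 4 of the 5 red blood cell markers tested. The 8 glial markers, led by Aldh1l1, summed to between 2014 in WT R2 and 3556 in WT R4, the libraries that were lowest and highest for Mapt, Map1a, Map6 and Dclk1. The 8 red blood cell markers, led by Hbb-b2, summed to between 1596 and 7064, with Hbb-bh1 at 0 throughout. KO R1 was the lowest library for Map1b, Dcx and Tubb3, and leaving it out gave log2 fold changes of -0.0235 for Map1b, 0.05 for Dcx and 0.11 for Tubb3. The part of these markers in the values of the 10 genes was not tested. In bulk tissue, a change in the number of neurons and a change in these RNAs per neuron cannot be told apart.

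Per length, the 10 genes covered a wide range, and their order was the same in KO and WT. Library-scaled counts (CPM) per kilobase of annotated exon were highest for Stmn1 (1335 ± 69.2 in KO and 1308 ± 58.2 in WT, SD, n = 4). Tubb3 followed with 696 ± 64.4 in KO and 675 ± 33.8 in WT, and Stmn2 with 622 ± 20.8 and 573 ± 61.9. The libraries of Tubb3 and Stmn2 overlapped, so these neighbours were not separated by their spread.

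Mapt came next, at 148 ± 10.3 in KO and 145 ± 15.2 in WT CPM per kilobase, 2.67-fold above Map2 over all libraries. Map2 had 55.4 and 54.3 in KO and WT, and Map1b, Dclk1 and Dcx lay between 33.5 and 44.2 in their genotype means, with Map1b overlapping Dclk1 and Dclk1 overlapping Dcx. Map6 (9.37 in KO, 9.48 in WT) and Map1a (1.90 in KO, 1.88 in WT) closed the order, each apart from its neighbours in every library. The exon lengths come from an annotation other than the one behind the counts, so these levels are approximate.

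Ratios of 2 genes within a library do not depend on the scaling between libraries. Each of the 3 ratios examined set a gene of more mature or of neuronal cells over one of younger or more varied cells. The ratio of Map1a to Map1b counts was 0.0517, 0.0391, 0.0442 and 0.0483 in KO R1 to R4 and 0.0377, 0.0334, 0.0368 and 0.0646 in WT R1 to R4. All KO libraries were above WT R1, R2 and R3, and WT R4 was above all KO libraries. The log2 difference of KO minus WT was 0.13 (2-sided exact permutation test, p = 0.6, adjusted over the 3 ratios 0.8).

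The ratio of Stmn2 to Stmn1 counts was 0.472, 0.445, 0.471 and 0.459 in KO and 0.414, 0.442, 0.405 and 0.473 in WT. The pattern was that of the first ratio, with WT R1, R2 and R3 below all KO libraries and WT R4 above them. The log2 difference was 0.09 (2-sided exact permutation test, p = 0.171, adjusted 0.514). The ratio of Mapt to Dcx averaged 2.65 ± 0.273 in KO against 2.59 ± 0.535 in WT (SD, n = 4 each), with WT R4 highest (3.26) and WT R3 lowest (2.05), and a log2 difference of 0.05 (exact permutation test, p = 0.8, adjusted 0.8). The smallest p that 4 against 4 libraries allow is 0.0286. The log2 difference of Map1a to Map1b was 0.34 without WT R4 and 0.0266 without WT R2. That of Stmn2 to Stmn1 was 0.14 without WT R4, the only WT library above the KO libraries. Removing WT R4, chosen by its value, leaves no overlap in either of these ratios, so small p-values follow from that choice. The exact permutation test then gives an unadjusted p of 0.0571 for Map1a to Map1b and of 0.0286 for Stmn2 to Stmn1. The latter is the smallest possible for 4 against 3 libraries as well. Neither is adjusted over the 3 ratios.

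**Figure D4:**
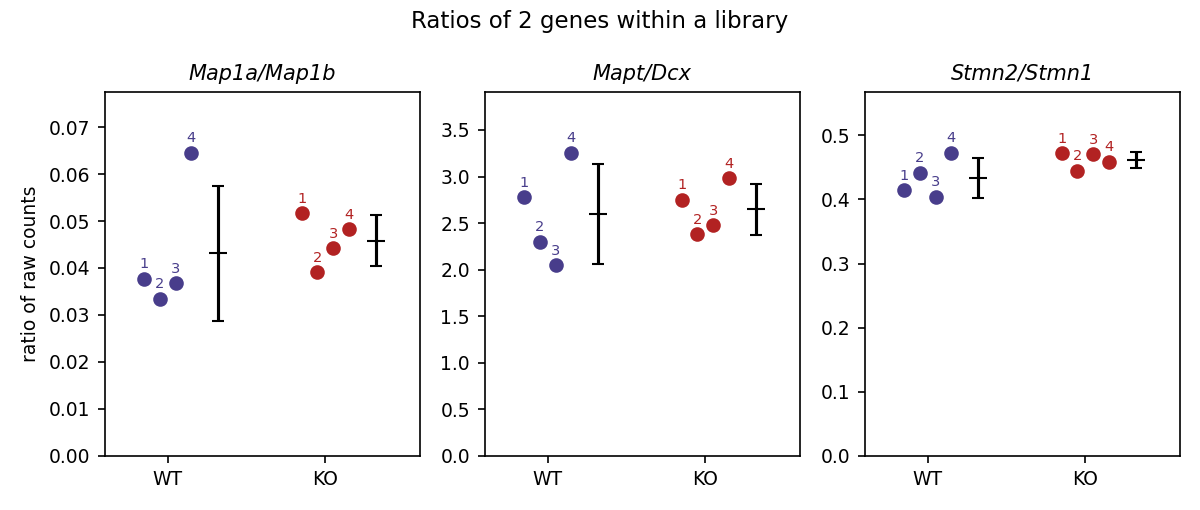
Ratio of raw counts of 2 genes in the same library (y axis, from 0) in the 4 WT (blue) and 4 KO (red) libraries, numbered by library, with the mean and SD of each genotype in black. WT R4 is the highest library in all 3 panels, and in the Map1a/Map1b panel it stands at 0.0646 against 0.0334 to 0.0377 in the other WT libraries.

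Across the 8 libraries, the genes nearest to Mapt in centred log2 level were Ap3m2, a subunit of the AP-3 vesicle coat, Svop, a synaptic vesicle protein, and Crmp1, a collapsin response mediator protein. Their root mean square differences from Mapt were 0.0270, 0.0348 and 0.0364. Crmp1, for example, had between 28992 (WT R2) and 35785 (KO R4) normalized counts. Among the 10 genes Stmn1 came nearest to Mapt, at 0.0598 and rank 76 of all genes tested, and Dclk1 followed at 0.0667 and rank 143. Map1a and Dcx were far from Mapt, at 0.203 and 0.204, a measure that also grows with the size of the deviations. Map1a moved in the direction of Mapt in WT R2 (-0.53 against -0.17) and WT R4 (0.52 against 0.16), but further. Dcx was at 0.01 in WT R2 and at -0.17 in WT R4.

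The wider microtubule system was examined through 111 further genes in 7 groups, of which 105 were in the table and 92 were tested. None passed an adjusted p of 0.05 in edgeR's quasi-likelihood test or in DESeq2, and 9 had in edgeR an unadjusted p under 0.05, 4 higher and 5 lower in KO. That is 9.78% of those tested, near the 7.69% of all genes (4.51% higher and 3.18% lower). Their median log2 fold change was -0.03.

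Other members of the same families had a median log2 fold change of 0.0034 over 10 genes tested, and 1 of them was at an unadjusted p under 0.05. This was Stmn4, a neuronal stathmin, with 10290.5, 10929, 10569.8 and 11283 normalized counts in KO and 8507, 8643, 8039 and 10626 in WT. As for Stmn2, the KO libraries were above WT R1, R2 and R3, and WT R4 fell among them. For Stmn4 the log2 fold change was 0.27 (standard error 0.08, adjusted p = 0.489 by edgeR's quasi-likelihood test). It was 0.36 without WT R4, with an adjusted p of 0.0446 in edgeR's quasi-likelihood test. WT R4 was the only WT library within the KO range, so removing it leaves no overlap. A smaller p therefore follows from that choice. Over all genes, 11 in place of 9 passed the adjusted threshold of that test without WT R4. Stmn3, also neuronal, had a log2 fold change of 0.17 (interval -0.03 to 0.37). With Stmn1 at 0.03 and Stmn2 at 0.12, all 4 stathmins were above 0, against 45.6% of all genes tested. None of the 4 passed the adjusted test with all libraries, and they were not tested as a group.

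Among the 14 other tubulins tested, the median was -0.04. Tubb2b, a beta-tubulin of developing neurons, had a log2 fold change of 0.15 (interval 0.01 to 0.30) and Tuba4a, an alpha-tubulin, one of -0.68 (interval -1.27 to -0.09). Tuba4a had low counts, and its 319 normalized counts in WT R4 were far above the 137 to 189 of the other WT libraries. Without WT R4 the log2 fold change of Tuba4a was -0.41.

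The 18 plus-end and minus-end proteins tested had a median of -0.06, with 3 of them above 0. The 2 with the smallest p were Nav1, a neuron navigator that tracks plus ends (-0.17, interval -0.32 to -0.03), and Clip4, a CAP-Gly domain protein (-0.21, interval -0.418 to 0.0041). The 5 members of the CRMP family had a median of 0.01, with Dpysl4 at -0.22 (interval -0.431 to -0.00096) and Dpysl2, the gene of CRMP2, at -0.02. The 7 severing and depolymerising proteins tested had a median of -0.01, and Katnal2 (-0.19) and Kif2c (-0.23) came first by p, both with intervals spanning 0.

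The 16 tubulin-modifying enzymes tested had a median of -0.06. Ttll1, a subunit of a tubulin polyglutamylase, had 1363, 1475, 1436 and 1535 normalized counts in KO and 1606, 1672, 1626 and 1655 in WT. The genotypes did not overlap, and the log2 fold change of Ttll1 was -0.17 (standard error 0.05, adjusted p = 0.481 by edgeR's quasi-likelihood test, the smallest of the 92 genes). Svbp, the partner of the tubulin-detyrosinating vasohibins, had a log2 fold change of 0.15 (interval 0.0035 to 0.303).

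The 22 kinases and phosphatase subunits tested that act on tau and other MAPs had a median of -0.01. Mapk8 and Mapk9, which encode the stress kinases JNK1 and JNK2, differed in sign, with log2 fold changes of 0.12 (interval 0.02 to 0.23) and -0.11 (interval -0.21 to -0.01). Mapk8 had between 5047 and 5528 normalized counts in KO and between 4718 and 5030.0 in WT, and Mapk9 between 1432 and 1501 in KO and between 1575 and 1608 in WT, without overlap in either gene. Adjusted p-values of edgeR's quasi-likelihood test were 0.617 for Mapk8 and 0.630 for Mapk9. With Ttll1 and Hdac6, a tubulin deacetylase, these were the 4 of the 92 genes without overlap between genotypes; over all genes the share was 4.49%.

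**Figure D5:**
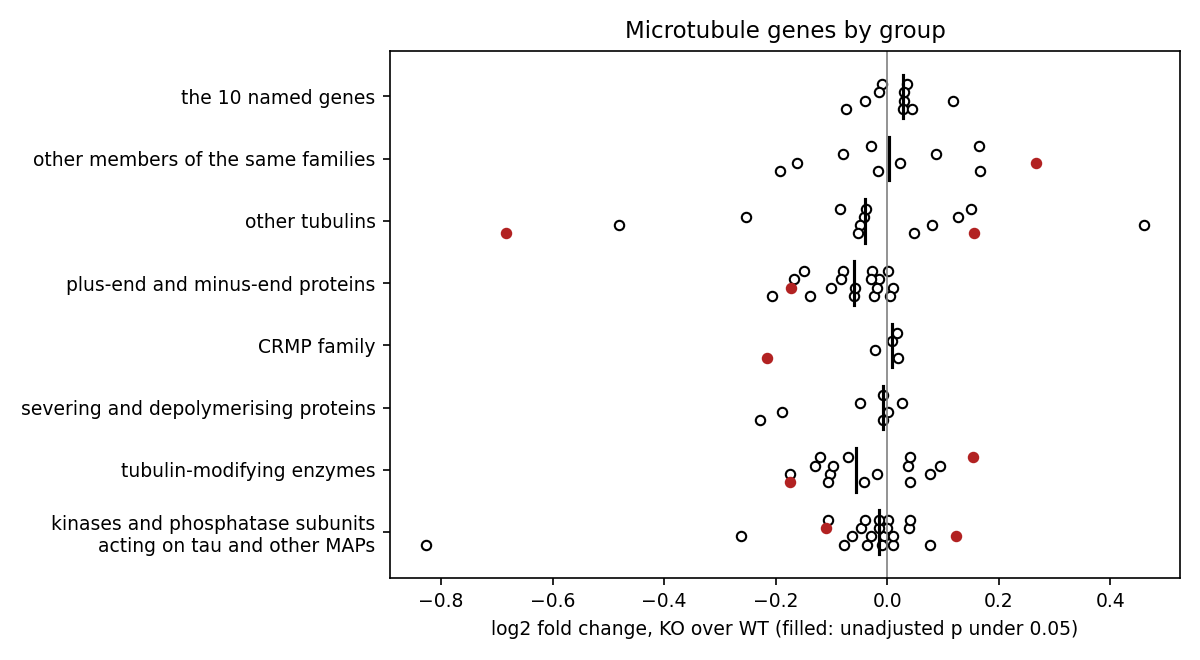
Log2 fold change of KO over WT (x axis) for the 10 genes and for the 92 further microtubule genes by group (y axis), with filled points at an unadjusted p under 0.05 and a vertical line at the median of each group. The 10 genes lie between -0.07 and 0.12, and 9 further genes are filled.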

How the data were processed

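RNA of 8 embryonic cortices was measured as read counts per gene. The authors removed adapters and bases under a Phred quality of 20 (cutadapt 1.13), dropped reads under 25 bp, aligned to mm9 (TopHat2 2.0.13, SAMtools 0.1.19), and deposited raw whole-number counts from HTSeq-count. Its version, annotation and strand setting are not given in the sources used here, and the library kit was stranded. Reads with several equal placements may have been lost at counting.

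Columns were grouped by genotype as named. CPM was taken on TMM-scaled library sizes. After TMM scaling and filterByExpr, the quasi-likelihood test of edgeR 4.0.16 (R 4.3.3) was run on 12699 of 21165 genes, of which 4641 had no count, and p-values were adjusted by the Benjamini-Hochberg method over all 12699. A standard error is the absolute log2 fold change over the root of its F value. Ratios of raw counts were tested by 2-sided exact permutation. The labels name separate embryos, so p-values measure the spread between embryos. The 10 genes, the companion groups and the markers were chosen with earlier results of these data known. Companions were named as the 2 with the smallest p in each group, and Hdac6 and the libraries singled out were named after their values were seen. Exon lengths, positions and sequences come from the GENCODE annotation and genome of NCBIM37. Scripts were tested on simulated counts.

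Alternatives were DESeq2 1.42.0, the tool of the authors, its size factors in edgeR, no filter, at least 10 counts in every library, unlogged ratios, and each of the 8 libraries left out in turn. Of the sequence pairs and marker genes examined, 1 pair and 1 gene are not reported here.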

Additional observations from a re-analysis of the deposited data

Results flagged for a closer look

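Among 84 groups of 4 libraries examined, 5 had a highest or lowest library that stood apart from the other 3 by Dixon's criterion, where chance gives about 1 in 20, or 4.2. The ratio of Map1a to Map1b was 0.0646 in WT R4, above the other WT libraries. The summed normalized counts of the other members of the same families were 33227.5 in KO R4, above the other KO libraries. Markers of cortical projection neurons summed to 18603 in WT R4, below the other WT libraries, and endothelial markers to 2958 in WT R3, below the other WT libraries. Markers of meningeal fibroblasts summed to 9795 in KO R1, above the other KO libraries.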

How the results depend on the processing

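None of the 10 genes passed an adjusted p of 0.05 under any alternative. Over all genes the number past it was 9 with edgeR and 65 with DESeq2, and between 2 and 11 with a library left out. The number at an unadjusted p under 0.05 and an absolute log2 fold change over 0.25 was 540, and between 426 and 847 with a library left out. Without filter the log2 fold change of Map6 was 0.00035 in place of -0.01. The number of the 10 intervals within 0.25 of 0 was 8 in place of 7 with DESeq2 size factors in edgeR, without filter, and with at least 10 counts in every library. Leaving out 1 library at a time, the number of the 10 genes at an unadjusted p under 0.05 was between 0 and 1, that of intervals within 0.25 of 0 between 4 and 7, that of the 92 further genes past the adjusted threshold between 0 and 1 (Stmn4, without WT R4), and that at an unadjusted p under 0.05 between 4 (without KO R3) and 13 (without WT R4). The log2 fold changes that crossed 0 with a library left out among the 10 genes and the further genes named were those of Mapt (-0.0186 to 0.0964), Map1a (-0.116 to 0.245), Map2 (-0.0100 to 0.0700), Map6 (-0.107 to 0.103), Dcx (-0.0645 to 0.0686), Dclk1 (-0.0916 to 0.00553) and Dpysl2 (-0.0455 to 0.0240). Medians of the log2 fold change that crossed 0 were those of the 10 genes (-0.0178 to 0.0531), of other members of the same families (-0.0717 to 0.0299), of other tubulins (-0.0477 to 0.0035), of the CRMP family (-0.0325 to 0.0318), of severing and depolymerising proteins (-0.0601 to 0.0195) and of kinases and phosphatase subunits (-0.0241 to 0.0059). Log2 differences of ratios lay between -0.0607 and 0.163 for Mapt to Dcx, between 0.0266 and 0.343 for Map1a to Map1b, and between 0.0612 and 0.136 for Stmn2 to Stmn1. The causes were not tested. No paired analysis was possible because a column carries a genotype and a running number with no litter or embryo. The spread of 4 libraries per genotype limits precision most for Map1a, with a standard error of 0.18 on the log2 scale.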
